A study of Gasterosteus aculeatus with 9 samples.

Results

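The genes of the hypoxia-inducible factor (HIF) pathway were measured in the gill RNA of 9 wild three-spined sticklebacks (Gasterosteus aculeatus). The pathway was taken as 10 genes, namely HIF1A, EPAS1, ARNT, ARNT2, EGLN1, EGLN2, EGLN3, HIF1AN (Swiss-Prot entry name HIF1N), VHL and BNIP3. A transcript of the de novo assembly was assigned to a gene when the first Swiss-Prot protein in its annotation carried that name, so that 53 of 98643 transcripts belonged to the pathway. They covered 9 of the 10 genes and 9 of the 10495 protein names in the table, and no transcript had EGLN3, an oxygen-sensing prolyl hydroxylase, as its first name. HIF1A, EPAS1 and ARNT had 9 transcripts each, EGLN1 had 8, VHL 5, ARNT2 and EGLN2 4 each, BNIP3 3 and HIF1AN 2.

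The fish came from 3 stations on urban streams with 3 fish per station, and each fish was 1 library. The labels give a chloride concentration of 12.912 mg/L for the reference station B, 26.378 mg/L for station A (mid-salinity) and 32 mg/L for station C (high-salinity). All were wild fish, for which no experimental treatment or genetic alteration is given. The paper states that they were caught by electrofishing and killed with an overdose of tricaine methanesulfonate before the gills were taken. The labels give neither age nor sex, and chloride cannot be told apart from any other feature that differed between the stations. Counts per fish summed to between 22049066 and 46214540.

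In animal cells, HIF-1α (HIF1A) and HIF-2α (EPAS1) are made continuously and are mostly controlled as proteins. When oxygen is sufficient, the EGLN prolyl hydroxylases mark the α-subunits for the VHL ubiquitin ligase, and HIF1AN hydroxylates their activation domain, whereas under low oxygen the α-subunits persist, pair with ARNT or ARNT2 and switch on genes of oxygen transport, glycolysis and mitophagy such as BNIP3. The gill is the organ of both oxygen uptake and ion exchange in fish. RNA levels say nothing of protein amount or hydroxylation. In bulk gill RNA, fewer cells of a type and less RNA per cell cannot be told apart.

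Levels are given as TMM-normalized CPM, that is counts scaled to a common library total (CPM) after edgeR's correction for composition, summed over all transcripts of a gene. A count of 3, taken as the detection floor, was 0.0649 to 0.136 CPM before this correction and covers counting error only. Transcript lengths were not used here, so levels are compared between fish and not between genes.

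The library of station C replicate 2 stood apart and is given separately throughout. Its TMM factor was 0.572, against 1.02 to 1.13 in the other 8 fish. Markers of gill epithelium and ionocytes summed to 2521 CPM in it and to 7476 to 9262 CPM in the others, and it was the lowest fish for 5 of the 6 markers measured. EPCAM, an adhesion protein of epithelia, was 0.30 CPM there against 12.5 to 28.8 CPM, and RHCG, an ammonia transporter of gill cells, was 6.64 CPM against 239 to 2323 CPM. Liver markers summed to 859 CPM against 0.0446 to 0.269 CPM, skeletal muscle markers to 19364 CPM against 638 to 5273 CPM, and gut and pancreas markers to 577 CPM against 17.0 to 56.3 CPM. It was the highest fish for all 5 liver markers and 5 of 6 muscle markers, and TNNI2 (317 CPM against 43.7 to 792 CPM) lay within the range. Of 4 gut and pancreas markers, only FABPI (450 CPM) and ELA1 (125 CPM) were highest there. TRY1 (2.10 CPM) lay within the range, and CEL was 0 CPM there and at most 0.0767 CPM in the others. Of 3 endothelial markers, PECA1 was lower (15.7 CPM against 91.2 to 227 CPM) and VGFR2 (37.3 CPM against 6.48 to 11.7 CPM) and EGFL7 (60.9 CPM against 13.2 to 38.2 CPM) were higher, with a sum of 114 CPM against 122 to 275 CPM. The red cell markers summed to 28.9 CPM against 118 to 575 CPM, of which B3AT was lower and HEM0, at 5.19 CPM, was within the range of the other fish. The part of these markers in the results below was not tested. The names of 3 libraries, station A replicate 3 and station C replicates 2 and 3, carry an added suffix whose meaning is not given in the sources used here, and no library of station B carries it.

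No gene of the pathway was called between stations. EdgeR's quasi-likelihood test on the sums per protein name called 0 of the 9 genes in each of the 3 comparisons, where a call needed a p, adjusted after Benjamini and Hochberg, of 0.05 or less and a log2 fold change beyond 1 in either direction. Over all names it called 0.0% of 9052 in A vs B, 0.0% of 9012 in C vs B and 0.0% of 9075 in C vs A. With all 6 fish of a comparison, none of the 9 genes had an unadjusted p under 0.05 in edgeR, where 6.19%, 3.82% and 3.15% of all names did. In DESeq2 ARNT had one in A vs B and in C vs B, before adjustment. DESeq2's Wald test called 0.407%, 0.139% and 0.712% of the names, none of them from the pathway, whose smallest adjusted p was 0.588, 0.220 and 0.972 by DESeq2 and 0.776, 0.774 and 0.933 by edgeR. DESeq2 gave BNIP3 no adjusted p in the comparisons with station C. The median absolute log2 fold change of the 9 genes was 0.14 in A vs B, 0.23 in C vs B and 0.18 in C vs A, beside 0.18, 0.31 and 0.30 over all names. A vs B and C vs B share the fish of station B.

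**Figure D1:**
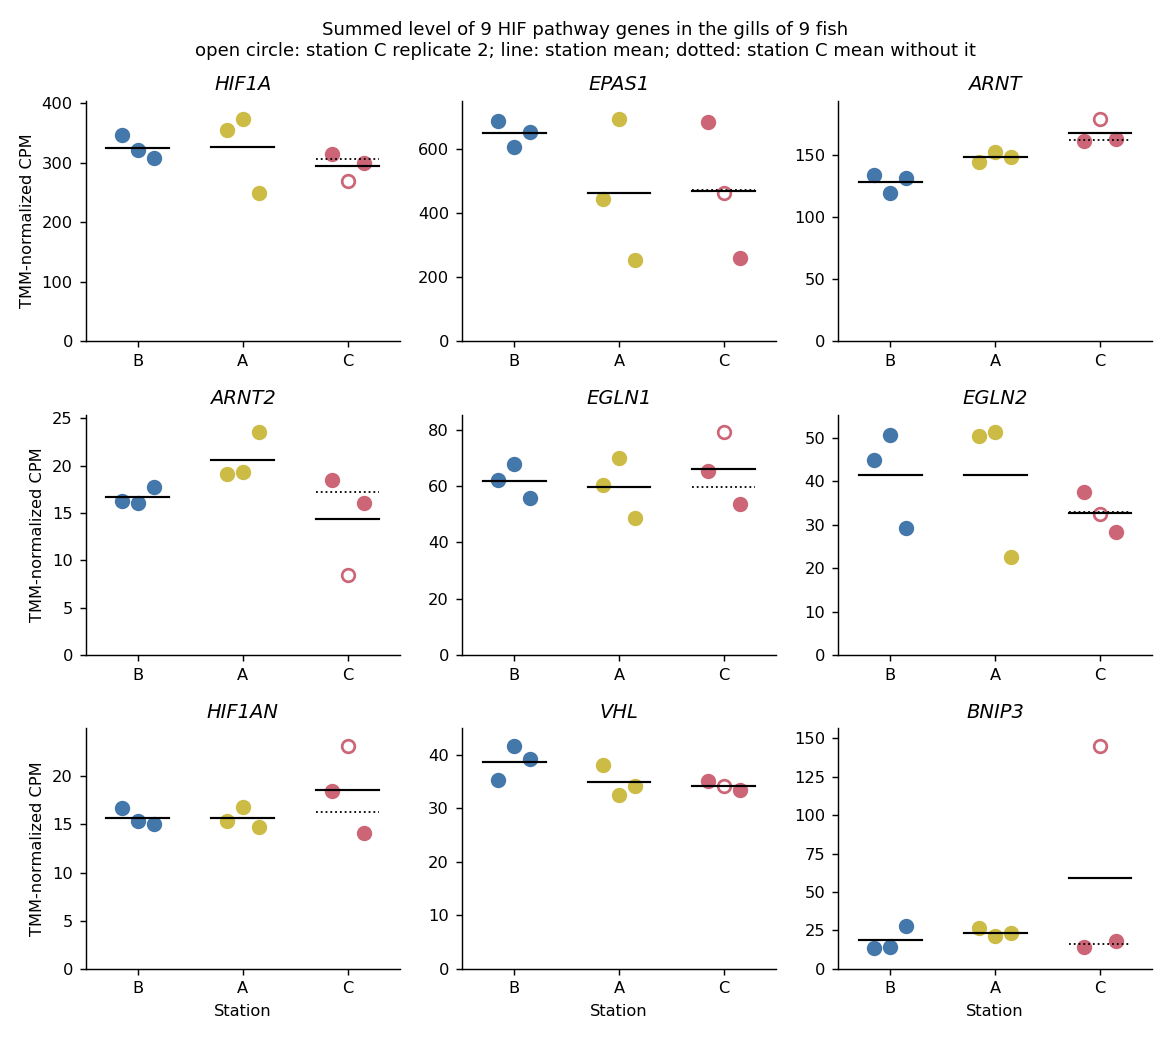
Summed level (TMM-normalized CPM, axes from 0) of the 9 measured HIF pathway genes by station, 1 point per fish, with lines for the mean of 3 fish, the open circle for station C replicate 2 and the dotted line for station C without it. BNIP3 in that fish lies at 145 CPM, while the other 8 lie between 13.8 and 28.1 CPM, and ARNT is the gene whose 3 stations do not overlap.

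**Figure D2:**
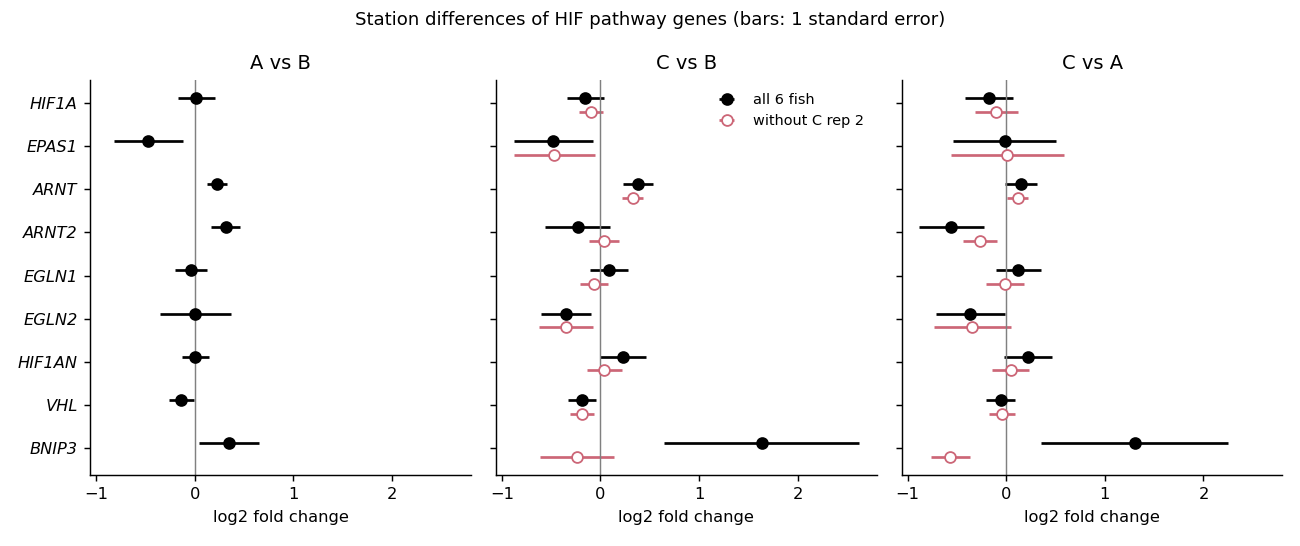
Log2 fold change of each gene in the 3 comparisons by edgeR, with bars of 1 standard error, filled for all 6 fish and open without station C replicate 2. The widest bars belong to BNIP3 in both comparisons with station C, where its value goes from 1.63 to -0.24 (C vs B) and from 1.31 to -0.57 (C vs A) when that fish is left out.

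HIF1A, the oxygen-regulated α-subunit of HIF-1, had a level of 347, 321 and 308 CPM in replicates 1, 2 and 3 of station B. It was 355, 374 and 249 CPM at station A and 314, 269 and 299 CPM at station C. The stations overlapped, and the lowest fish was replicate 3 of station A. The mean was 325 ± 19.7 CPM (SD, n = 3) at B, 326 ± 67.2 CPM at A and 294 ± 23.1 CPM at C. The log2 fold change was 0.02 (SE 0.19, edgeR adjusted p = 0.990) in A vs B and -0.16 (SE 0.19, adjusted p = 0.837) in C vs B. HIF1A was 249 to 299 CPM in the 3 libraries with the suffix and 308 to 374 CPM in the other 6. Such a separation, with the suffix lower, was met by 1 of the 9 genes and by 3.53% of 8940 names. On plain CPM HIF1A overlapped (337 CPM in station C replicate 3 and 331 CPM in station B replicate 2), and EPAS1, EGLN1 and EGLN2 separated in its place, beside 3.51% of names. The HIF1A transcripts that match no second protein, described below, also overlapped. They were 78.6 to 126 CPM with the suffix and 72.6 to 91.4 CPM without it.

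EPAS1, the α-subunit of HIF-2, which in mammals is prominent in endothelium, varied most among the members other than BNIP3. Its level was 686, 605 and 651 CPM in the fish of station B, 444, 694 and 252 CPM at station A and 683, 461 and 258 CPM at station C. The fish of station B lay close together, whereas A and C each held 1 fish at the level of B and 1 of the 2 lowest fish, at 252 and 258 CPM. The SD was 40.3 CPM at B, 221 CPM at A and 213 CPM at C, around means of 647, 463 and 468 CPM. The log2 fold change was -0.47 (SE 0.35, edgeR adjusted p = 0.846) in A vs B and -0.48 (SE 0.40, adjusted p = 0.784) in C vs B, and both comparisons rest on the same 3 fish of B. These values moved with single fish: A vs B was -0.17 without station A replicate 3 and -0.89 without replicate 2, and C vs B was -0.19 without station C replicate 3 and -0.87 without replicate 1. The 2 lowest fish for EPAS1 also had the lowest summed endothelial markers of the 8 other than station C replicate 2, at 122 CPM. The others had 153 to 275 CPM, but the highest sum belonged to station A replicate 1, the next lowest fish for EPAS1 (444 CPM). The sum was mostly PECA1, at 91.2 and 102 CPM in the 2 lowest fish. The part of these markers in the EPAS1 levels was not tested. Station C replicate 2, at 461 CPM, did not set this spread: without it the highest of the other 8 fish was 2.75 times the lowest. The coefficient of variation over those 8 fish was 35.6%, higher than in 76.9% of 8940 names. EPAS1 was 252 to 461 CPM in the libraries with the suffix and 444 to 694 CPM in those without it.

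ARNT, the constitutive β-subunit that pairs with both α-subunits, showed the most regular pattern. It was 134, 119 and 131 CPM at station B, 145, 152 and 149 CPM at station A and 161, 179 and 163 CPM at station C. Every fish of A lay above every fish of B, and every fish of C above every fish of A. This order without overlap was met by 1 of the 9 members and by 0.201% of 8940 names, and the reverse order by none of the members and 0.0336% of names. The means were 128 ± 7.73 CPM (SD, n = 3), 149 ± 3.91 CPM and 168 ± 10.1 CPM. The log2 fold change was 0.22 (SE 0.10, edgeR adjusted p = 0.776) in A vs B, 0.38 (SE 0.15, adjusted p = 0.774) in C vs B and 0.15 (SE 0.16) in C vs A. Without station C replicate 2 the value in C vs B was 0.33 (SE 0.11, adjusted p = 0.601), and its unadjusted p then lay under 0.05. The order depends on the scaling of that fish. On plain CPM it lay at 103 CPM, below all fish of B, and the value in C vs B was 0.19. The other fish kept the order on plain CPM. They lay at 123 to 145 CPM at B, 147 to 166 CPM at A and 180 and 184 CPM at C. Leaving out the TMM factor moved the median of all names in C vs B from 0.03 to -0.14 on the log2 scale, and in C vs A from 0.02 to -0.11.

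ARNT2, the β-subunit that in mammals is best known from neurons, was 16.3, 16.1 and 17.8 CPM at B, 19.1, 19.3 and 23.5 CPM at A and 18.5, 8.44 and 16.1 CPM at C. The fish of A lay above those of B without overlap, and station C replicate 2 was the lowest of all. The log2 fold change was 0.31 (SE 0.15, edgeR adjusted p = 0.776) in A vs B and -0.55 (SE 0.33, adjusted p = 0.933) in C vs A, and the latter was -0.27 without that fish. In C vs B it was -0.23 with it and 0.04 without it.

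The genes whose stations did not overlap are given by comparison and direction, beside the share of all names. In A vs B, ARNT and ARNT2 were higher in every fish of A, 2 of 9 genes against 5.03% of all names, and none was lower against 6.98%. In C vs B, ARNT was higher (7.56% of all names) and VHL lower (6.17%). In C vs A, ARNT was higher (5.65%) and ARNT2 lower (4.07%). On plain CPM only ARNT in A vs B kept its separation.

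Among the oxygen sensors, EGLN1, which encodes PHD2, the main HIF prolyl hydroxylase of mammalian cells, was 55.6 to 67.8 CPM at B, 48.5 to 70.0 CPM at A and 53.7 to 79.0 CPM at C. Its log2 fold change was -0.04 in A vs B and 0.08 (SE 0.19) in C vs B. EGLN2, which encodes PHD1, was 44.9, 50.6 and 29.2 CPM at B, 50.4, 51.3 and 22.7 CPM at A and 37.5, 32.5 and 28.4 CPM at C. The lowest fish was replicate 3 at each station, set well apart at B and A, whereas the values at C were graded. The log2 fold change was 0.01 (SE 0.36) in A vs B and -0.35 (SE 0.25) in C vs B. EGLN2 was 22.7 to 32.5 CPM in the libraries with the suffix and 29.2 to 51.3 CPM in the others. HIF1AN, the asparaginyl hydroxylase that blocks the binding of coactivators, was 15.1 to 16.7 CPM at B, 14.8 to 16.8 CPM at A and 14.1 to 23.1 CPM at C, with the highest value in station C replicate 2. Its log2 fold change in C vs B was 0.23 with that fish and 0.04 without it.

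The levels of 4 genes shared their lowest fish when station C replicate 2 was set aside: HIF1A, EPAS1, EGLN1 and EGLN2 were each lowest in station A replicate 3. For HIF1A and EGLN1 this rested on transcripts that also match other proteins, described below, at 171 and 18.6 CPM in that fish. Their transcripts with no second protein, from other assembled genes, were 78.7 and 29.9 CPM in it. Of the 8 fish, these were lowest in station B replicate 2 for HIF1A (72.6 CPM) and replicate 3 for EGLN1 (29.1 CPM). None of the other 7 fish was lowest for more than 2 members, and station A replicate 3 was the lowest of the 8 for 21.5% of 8940 names. It was also lowest of the 8 for AT1A1 of ionocytes (1016 CPM against at least 1987 CPM). The same held for RHCG of ionocytes (239 CPM against at least 671 CPM), B3AT of red cells (115 CPM) and PECA1 of endothelium (91.2 CPM). It was not lowest for the other markers of these lists. K2C8 was the highest of all fish (6881 CPM), and EPCAM (20.7 CPM), HEM0 (3.43 CPM) and EGFL7 (24.1 CPM) lay within the range of the others. The summed gill epithelium and ionocyte markers were 8668 CPM, within the range of 7476 to 9262 CPM. The part of these markers in the 4 genes was not tested.

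VHL, which recognizes hydroxylated α-subunits for ubiquitination, was 35.3, 41.6 and 39.2 CPM at B, 38.1, 32.5 and 34.3 CPM at A and 35.0, 34.3 and 33.4 CPM at C. All 3 fish of C lay just below the lowest fish of B. The means were 38.7 ± 3.17 CPM (SD, n = 3), 34.9 ± 2.84 CPM and 34.2 ± 0.817 CPM. The log2 fold change was -0.14 (SE 0.12, edgeR adjusted p = 0.873) in A vs B and -0.19 (SE 0.14, adjusted p = 0.774) in C vs B. VHL had the smallest coefficient of variation of the members over the 8 fish other than station C replicate 2, 8.68%, where the median over 8940 names was 19.5%.

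BNIP3, a mitophagy receptor and a known HIF target, was 13.8, 14.2 and 28.1 CPM at B, 26.4, 21.1 and 23.3 CPM at A and 14.0, 145 and 18.01 CPM at C. The value of 145 CPM belonged to station C replicate 2 and was 7.40 times the median of the other 8 fish, or 3.82 times on plain CPM. The mean at C was 59.0 ± 74.5 CPM (SD, n = 3) with that fish and 16.0 CPM without it. The log2 fold change in C vs B was 1.63 (SE 0.99, edgeR adjusted p = 0.774) with it and -0.24 (SE 0.37, adjusted p = 0.854) without it. In C vs A it was 1.31 (SE 0.95, adjusted p = 0.933) with it and -0.57 (SE 0.20, adjusted p = 0.738) without it, where the unadjusted p lay under 0.05. The sign of the C comparisons of BNIP3 was therefore set by 1 library. In A vs B the value was 0.34 (SE 0.30, adjusted p = 0.870), and replicate 3 of station B lay above all fish of A. Without that fish the value was 0.77, and without replicate 1 or 2 of station B it was 0.16 or 0.18. Skeletal muscle markers summed to 638 to 2167 CPM in station B replicates 1 and 2 and station C replicates 1 and 3. BNIP3 was 13.8 to 18.01 CPM there. In station B replicate 3 and all fish of A they summed to 2566 to 5273 CPM, and BNIP3 was 21.1 to 28.1 CPM. Not every marker split so: ACTS was 252 CPM in station A replicate 1 and 383 CPM in station C replicate 1. The part of these markers in BNIP3 was not tested.

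By the estimated counts, single transcripts of a gene could be present in one fish and absent from another. How the estimate divided reads shared by similar transcripts was not tested, for these transcripts or for those described below. Of the 52 pathway transcripts above 1 CPM in at least 1 fish, 16 (30.8%) were at or under the floor of 3 counts in at least 1 other, while this held for 48.5% of 38701 named transcripts. VHL was the clearest case, since all 5 of its transcripts, from the single assembled gene DN2867_c1_g1, were such on and off transcripts. Their sum was 32.5 to 41.6 CPM over the 9 fish. These values cannot tell a change of transcript from a different division of shared reads. Transcript i3 held 22.4 CPM in 1 fish of B, 24.1 and 30.9 CPM in 2 fish of A and 31.7 and 20.7 CPM in 2 fish of C, and at most 1.32 CPM in the other 4. Transcript i1 was 20.8 and 25.3 CPM in replicates 1 and 2 of B, 18.6 and 9.05 CPM in replicates 2 and 3 of C and 0 in the other 5 fish. Transcript i2 was 27.9 CPM in station A replicate 2, 9.95 to 11.4 CPM in 5 fish and 0 in the other 3.

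**Figure D3:**
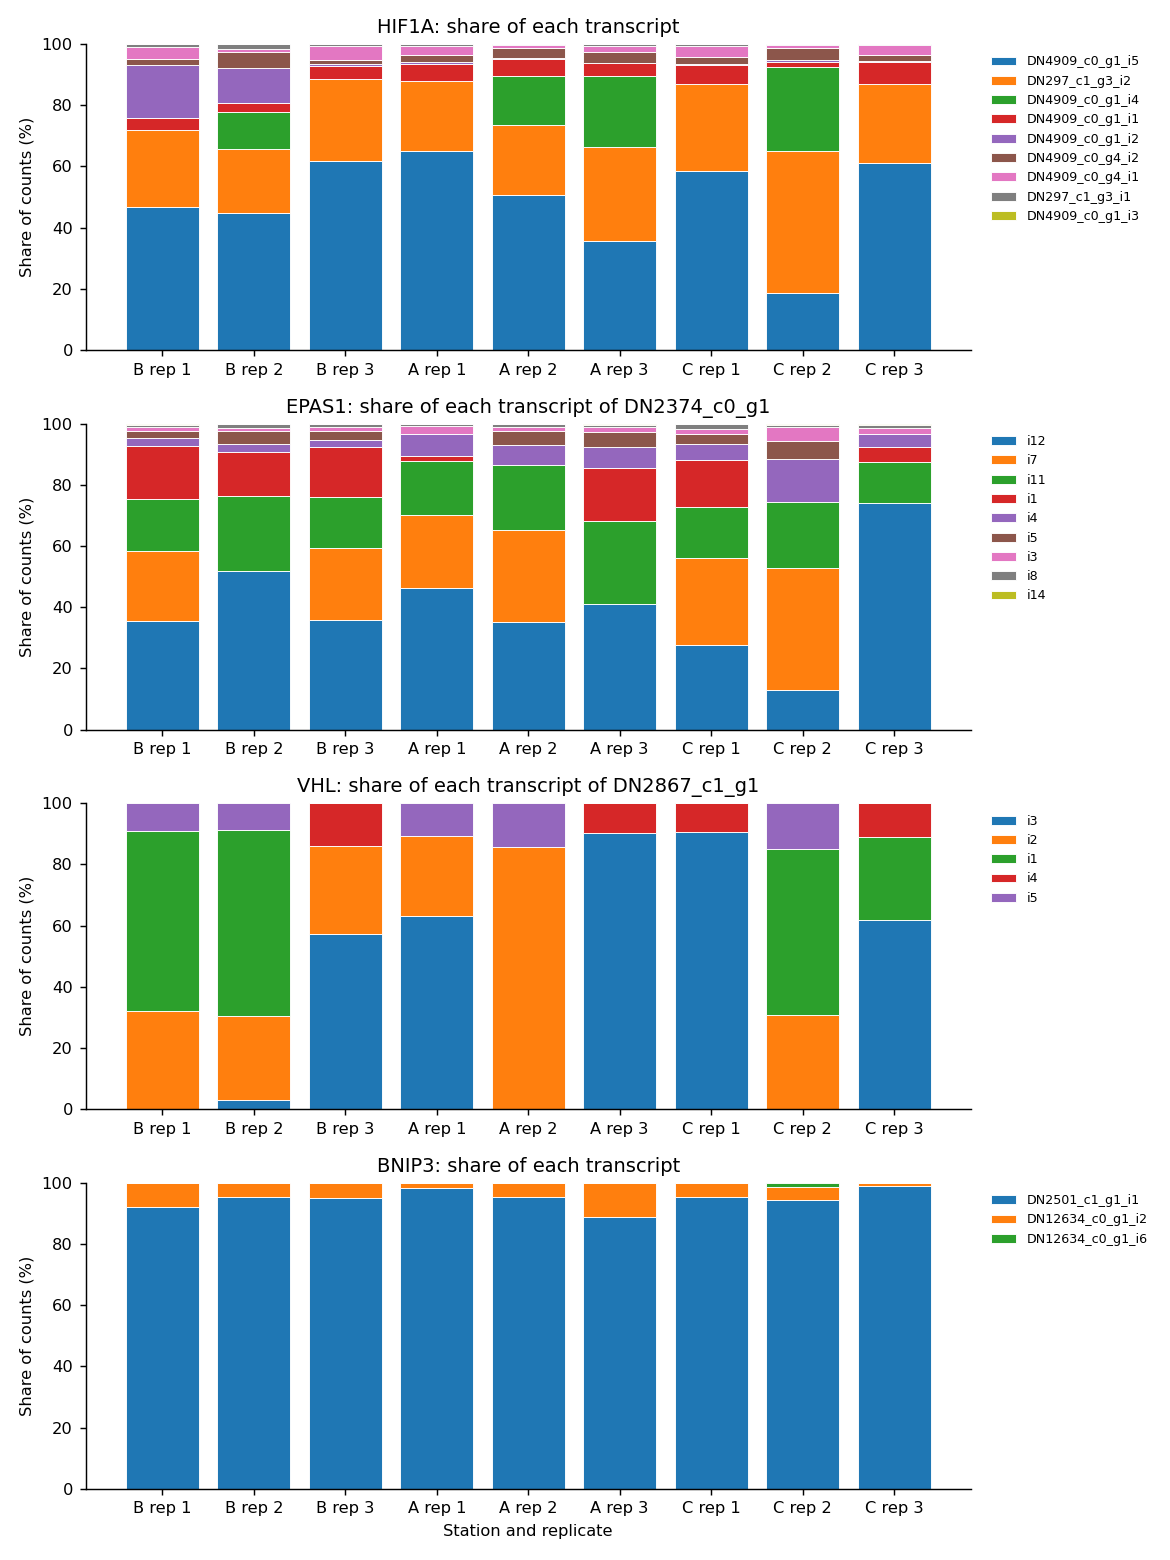
Share of a gene's counts (%) held by each assembled transcript in each of the 9 fish, for HIF1A, EPAS1, VHL and BNIP3, with 1 stacked bar per fish and 1 colour per transcript. Different transcripts of VHL lead in different fish of the same station, whereas 1 transcript of BNIP3 leads in all 9.

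HIF1A counts came from 3 assembled genes. DN4909_c0_g1_i5 held 51.5% of them and DN297_c1_g3_i2 held 26.5%. In station C replicate 2 the share of the first was 18.6%, against 35.6 to 64.9% in the other 8 fish, and that of the second 46.3%, against 21.0 to 30.9%. Transcript DN4909_c0_g1_i3 had no counts in any fish.

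A further HIF1A transcript, DN4909_c0_g1_i2, was the single member transcript with an unadjusted p under 0.05, in both A vs B and C vs B. It was 60.1, 36.0 and 1.40 CPM at B, 1.47, 1.10 and 0.295 CPM at A and 1.27, 1.05 and 0.959 CPM at C. Its high level thus rested on replicates 1 and 2 of B, and replicate 3 lay at the level of the other stations. The log2 fold change was -5.14 (SE 1.49) in A vs B and -4.95 (SE 1.35) in C vs B, with an edgeR adjusted p of 1.00 in both. DESeq2 called it in both, with an adjusted p of 0.00928 in A vs B and 0.00100 in C vs B. On transcripts, edgeR called 0.0% in each comparison, and 3.42%, 2.7% and 3.63% of all transcripts had an unadjusted p under 0.05, with 1 of 48, 1 of 49 and 0 of 48 member transcripts. DESeq2 called 1.13%, 1.41% and 2.65% of all transcripts and 1, 1 and 0 of the members, and with transcripts above 1 CPM in 2 fish it called 1.39%, 1.36% and 2.4% and again 1, 1 and 0 of the members.

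The 9 transcripts of EPAS1 came from 1 assembled gene, DN2374_c0_g1. Transcript i12 held 38.9% of the counts, i7 20.5%, i11 19.0% and i1 10.7%. The share of i12 ranged from 12.9% in station C replicate 2 to 74.2% in station C replicate 3. Transcript i7 was 0 in 1 fish of each station, replicate 2 of B and replicates 3 of A and C, and 105 to 209 CPM in the other 6. Transcript i1 was 117, 86.3 and 106 CPM at B, 7.59, 0 and 43.8 CPM at A and 105, 0 and 12.2 CPM at C, so that its fish at A all lay below those of B while replicate 1 of C did not.

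The other genes each had 1 to 3 leading transcripts. ARNT was led by DN4230_c0_g1_i1 (35.0%), i12 (27.9%) and i13 (20.6%), of which i12 was 13.6 CPM in station C replicate 2 against 32.2 to 53.9 CPM in the others, and i13 69.6 CPM against 23.4 to 32.1 CPM. ARNT2 was led by DN30129_c0_g1_i4 (42.4%), i2 (29.4%) and i7 (18.9%). EGLN1 was led by DN19117_c0_g2_i22 (42.0%) and DN19117_c0_g1_i17 (31.8%), and EGLN2 by DN718_c0_g1_i1 (73.2%) and i4 (16.2%). In HIF1AN, DN5686_c0_g1_i9 held 93.9% of the counts. In BNIP3, DN2501_c1_g1_i1 held 94.8%, and it carried the high value of station C replicate 2, at 137 CPM against 12.7 to 26.8 CPM.

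For 3 members, some of the transcripts matched other, unrelated proteins beside the member, so that reads from any of the stretches count towards the same row. This held for 7 of the 9 HIF1A transcripts, all of which also matched both HTRA2, a mitochondrial protease, and KPCL, the protein kinase C encoded by PRKCH, and held 72.8% of the HIF1A counts. It held for 3 of the 8 EGLN1 transcripts, with TSNAX and 42.2% of the counts, and for 1 of the 2 HIF1AN transcripts, with CUED2 (gene CUEDC2) and 93.9%. In all, 11 of 53 pathway transcripts (20.8%) and 11.8% of all named transcripts matched more than 1 protein. In the RefSeq annotation of assembly fGasAcu3.hap1.1, hif1aa lies beside prkcha, egln1a beside tsnax and hif1an beside cuedc2, with 0 protein-coding genes between them. The joint HIF1A transcripts were 171 to 287 CPM in the 8 fish and 143 CPM in station C replicate 2, whereas the HIF1A transcripts with no second protein were 72.6 to 91.4 CPM and 126 CPM. With the single-protein transcripts alone, an alternative chosen after seeing the data, the log2 fold change of HIF1A in C vs B was 0.24 in place of -0.16. These transcripts all came from assembled gene DN297_c1_g3, and the joint ones all from DN4909_c0_g1 and DN4909_c0_g4. The alternative thus left out whole assembled genes and not only the second proteins. The annotation also lists hif1al, on another chromosome than prkcha. Which of hif1aa and hif1al each assembled gene belongs to was not tested. The annotation likewise lists both epas1a and epas1b, and which of them the EPAS1 assembled gene DN2374_c0_g1 belongs to was not tested.

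The partners and regulators of the HIF subunits were read from a list of 23 protein names, of which 13 were in the table and 10 were tested. EdgeR and DESeq2 called 0 of the 10 in each comparison, and 1 of 10 had an unadjusted p under 0.05 by edgeR in each, beside 6.19%, 3.82% and 3.15% of all names. ELOC (elongin C), a subunit of the VHL ligase, was 95.1, 114 and 88.1 CPM at B, 80.3, 77.8 and 73.3 CPM at A and 78.9, 68.6 and 73.0 CPM at C. All fish of A and C lay below those of B, as they did for 6.98% of names in A vs B and 6.17% in C vs B. The log2 fold change was -0.35 (SE 0.13, edgeR adjusted p = 0.776) in A vs B and -0.44 (SE 0.17, adjusted p = 0.774) in C vs B, and -0.39 in the latter without station C replicate 2. P4HTM, a transmembrane prolyl hydroxylase that can act on HIF-α in human cells, was 18.8, 41.2 and 39.9 CPM at A and 13.9, 15.1 and 18.7 CPM at C, with a log2 fold change of -1.09 (edgeR adjusted p = 0.933). It was 55.0, 18.4 and 17.3 CPM at B, so that 1 fish of B lay above all others. The median log2 fold change of the list was -0.08, -0.31 and -0.08 in A vs B, in C vs B and in C vs A, beside 0.01, 0.03 and 0.02 over all names.

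Known HIF targets were read from a list of 56 names, of which 43 were in the table and 37 were tested. EdgeR and DESeq2 called 0 of the 37 in each comparison. With an unadjusted p under 0.05 there were none in A vs B, TRFE (higher) and HIG1A (lower) in C vs B, and TRFE (higher) and LDHA (lower) in C vs A, beside 6.19%, 3.82% and 3.15% of all names. TRFE was higher in station C replicate 2 alone: it was 3.00 and 4.74 CPM in the other fish of C and 2.48 to 8.72 CPM at B, and without that fish its log2 fold change was -0.34 in C vs B and -0.79 in C vs A. The median log2 fold change of the targets was 0.00 in A vs B, 0.33 in C vs B and 0.19 in C vs A. Without station C replicate 2 the medians were -0.00 in C vs B and -0.02 in C vs A, beside -0.02 and -0.01 over all names.

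Other targets named by rule are given by their range. VEGFA, the main angiogenic growth factor, was 29.4 to 49.7 CPM in the other 8 fish, PGK1, a glycolytic kinase, 204 to 259 CPM, and GTR1, the glucose transporter GLUT1, 154 to 247 CPM. P4HA1, a collagen prolyl hydroxylase, was 57.5 to 98.7 CPM over all 9 fish, and DDIT4, an inhibitor of mTORC1 signalling, 19.5 to 38.7 CPM. The log2 fold changes of these 5 genes in A vs B were -0.15, 0.03, 0.17, 0.06 and -0.17, in the order given.

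LDHA, which converts pyruvate to lactate, was 108, 181 and 111 CPM at B, 156, 154 and 186 CPM at A and 56.2, 72.7 and 117 CPM at C. Every fish of C lay below every fish of A, and the log2 fold change in C vs A was -1.04 (SE 0.31, edgeR adjusted p = 0.933), or -0.94 without station C replicate 2. HIG1A (HIGD1A), a mitochondrial protein induced by hypoxia in mammals, was 218, 194 and 143 CPM at B and 120, 72.3 and 136 CPM at C. Its log2 fold change in C vs B was -0.76 (SE 0.31, adjusted p = 0.774), and -0.54 without that fish.

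BNI3L (BNIP3L, or NIX), the paralog of BNIP3, shared with it the high value in station C replicate 2, at 302 CPM. In the other fish it was 124, 127 and 122 CPM at B, 123, 122 and 117 CPM at A and 84.8 and 92.1 CPM at C. The 2 remaining fish of C thus lay below all 6 others. How many of all names did the same with station C replicate 2 set aside was not counted. Without station C replicate 2 the log2 fold change was -0.50 (SE 0.10, edgeR adjusted p = 0.601) in C vs B and -0.46 (SE 0.11, adjusted p = 0.496) in C vs A, and with it 0.34 (SE 0.53) and 0.39 (SE 0.54).

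In station C replicate 2 the high value of BNIP3 went together with high values of part of the targets. VEGFA was 199 CPM there, NDRG1, a stress-induced gene, 322 CPM against 57.5 to 119 CPM, TFR1 (transferrin receptor) 627 CPM against 90.8 to 178 CPM and PGK1 539 CPM. ADML (adrenomedullin) was 24.3 CPM against 7.08 to 14.7 CPM, and EPO (erythropoietin) 27.7 CPM against 0.178 to 0.886 CPM. TRFE (transferrin), an abundant plasma protein made in liver, was 39920 CPM against 2.48 to 10.1 CPM. GTR1 went the other way, at 53.0 CPM.

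This fish was the highest of the 9 for 17 of the 37 targets (45.9%), 4 of the 9 pathway genes (44.4%) and 34.7% of 8940 names. It was more than 2 times the highest of the other fish for 12 targets, 1 pathway gene (BNIP3) and 12.7% of names. It was the lowest fish for 10 targets (27.0%), 1 pathway gene (ARNT2, 11.1%) and 34.5% of names. The lowest of the other fish was more than 2 times its value for 4 targets, 0 pathway genes and 14.3% of names. These counts depend on the TMM factor of the library. On plain CPM it was highest for 12 targets, 1 pathway gene (BNIP3) and 13.8% of names. It was then more than 2 times the highest of the other fish for 5 targets, 1 pathway gene and 6.32% of names. It was lowest for 18 targets, 7 pathway genes and 65.8% of names. ADML was then 13.9 CPM, within the range of the other fish, and the other targets named here kept their side. The liver, muscle and gill epithelium markers given above moved in the same library, and their part in these values was not tested.

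**Figure D4:**
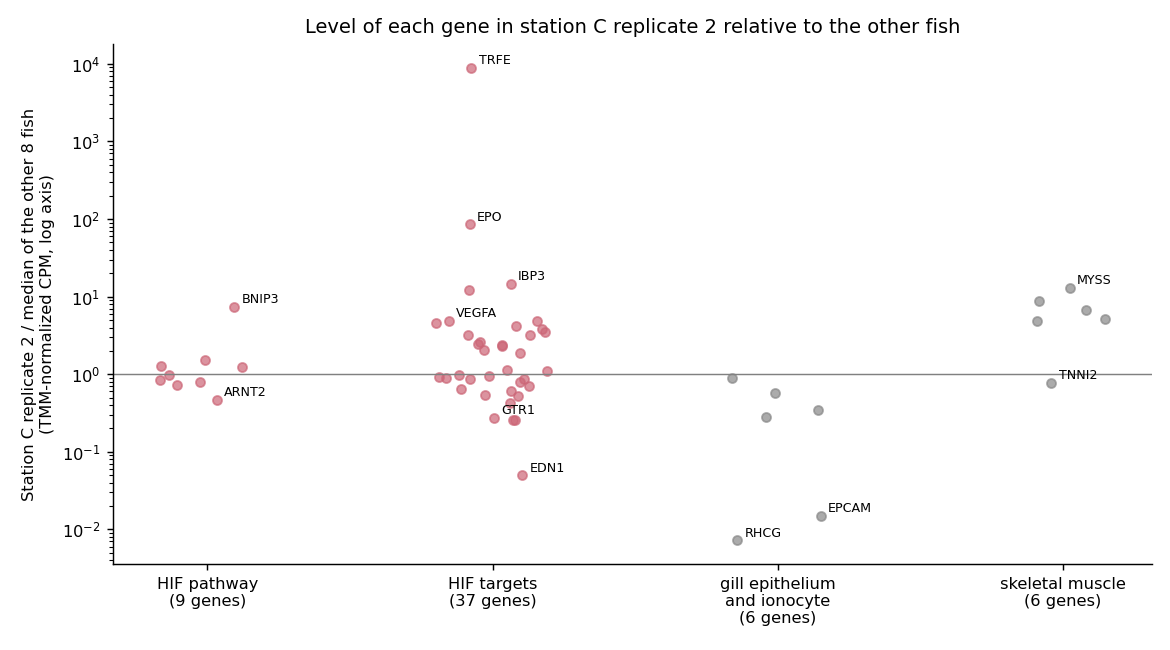
Level in station C replicate 2 divided by the median of the other 8 fish (TMM-normalized CPM, log axis, 1 point per gene) for 9 HIF pathway genes, 37 HIF targets and 2 marker lists, with the grey line at 1. BNIP3 lies at 7.40, the targets range over several orders of magnitude with TRFE highest, and the epithelial markers RHCG and EPCAM are lowest.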

How the data were processed

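Gill RNA was sequenced from 9 fish. The authors trimmed the reads with Trimmomatic, built 1 de novo Trinity assembly from all fish, dropped its weakly expressed transcripts and annotated the rest with Trinotate. Estimated counts per transcript from Salmon were deposited by the authors without normalization. The strand setting is not given in the sources used here, so reads of overlapping antisense genes may be included.

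The deposited estimated counts were rounded and then summed per first Swiss-Prot name (43772 named transcripts). The 6 fish of each comparison were fitted with the quasi-likelihood test of edgeR 4.0.16 (R 4.3.3) after filterByExpr and TMM normalization, and p-values were adjusted over all names or transcripts. The standard error of a log2 fold change is its size over the square root of F. All 9 measured members passed the filter in each comparison. Exact tests of 3 against 3 fish cannot go below p = 0.1 and were not used. DESeq2 1.42.0 with Wald tests, other filters and normalizations, a fit of all 9 fish, the replicate number as a block and leaving out each fish were alternatives. The scripts were tested on simulated counts. Figures were drawn with matplotlib 3.10.9.

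Named transcripts hold at least 10% of a member's counts or have an unadjusted p under 0.05. The transcripts of VHL, and EPAS1 fish by fish, were described in more detail after their values were seen. Named regulators and targets have an unadjusted p under 0.05, or are VEGFA, PGK1, LDHA, GTR1, TFR1, P4HA1, DDIT4, BNI3L, NDRG1, ADML and EPO. For HIF1A, EPAS1 and BNIP3 the 3 names with the most similar profile were taken. The members, lists and markers were chosen with earlier results of these data known, from general knowledge.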

Additional observations from a re-analysis of the deposited data

How the results depend on the processing

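The values rest on 3 fish per station, 1 library that stands apart and rows that can hold a second protein. Of 422 values of member sums per name under alternatives, 384 kept their direction and their side of the threshold and 38 reversed. None of these sums was called. Part of this agreement was fixed in advance. For members without a second protein in any row, the single-protein alternative uses the same rows. Counting rows that match a member by any name likewise left EPAS1, ARNT and BNIP3 in C vs B as they were. HIF1A moved under it, from -0.16 to -0.07 in C vs B and from -0.18 to -0.11 in C vs A. On transcripts, DESeq2 called the HIF1A transcript DN4909_c0_g1_i2 in A vs B and in C vs B. The cause of the reversals was not tested.

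Over all names, DESeq2 called 36 names in A vs B, 12 in C vs B and 62 in C vs A, where edgeR called 0, and 37, 10 and 65 with features above 1 CPM in 2 fish. Sums per assembled gene gave 1 call in C vs A. On transcripts DESeq2 called 579, 729 and 1371, or 626, 611 and 1096 with the 1 CPM filter, and edgeR with all 9 fish 1, 9 and 5. Leaving out 1 fish gave 0 to 2 calls of names in A vs B (2 without station B replicate 2), 0 in the others and 0 for transcripts.

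With single-protein rows, chosen after seeing the data, the log2 fold change was 0.10 for EGLN1 and -0.68 for HIF1AN in A vs B, 0.24 for HIF1A and -1.05 for HIF1AN in C vs B, and 0.21 and -0.39 for them in C vs A. HIF1AN then rests on 1 transcript of at most 1.60 CPM, HIF1A on assembled gene DN297_c1_g3 alone and EGLN1 on DN19117_c0_g2 alone. Without TMM factors, also chosen then, it was -0.0074 for HIF1A, -0.0068 for EGLN2 and -0.018 for HIF1AN in A vs B, -0.14 for EGLN1 and -0.0093 for HIF1AN in C vs B, and -0.075 for EGLN1 and -0.0083 for ARNT in C vs A. In the fit of all 9 fish it was -0.0039 for EGLN2 and -0.0062 for HIF1AN in A vs B and 0.014 for EPAS1 in C vs A.

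The deviations of fish with the same replicate number correlated weakly (2 of 9 pairs over 0.1, range -0.13 to 0.23). Pairs with different numbers ranged from -0.21 to 0.14. Between A and B the same-number pairs were all positive (0.16, 0.062 and 0.23), and with station C they ranged from -0.13 to 0.099. Such weak correlations cannot decide whether the numbers pair the fish. With the replicate number as a block, 0 names and 0 transcripts were called in each comparison, and HIF1A and EGLN2 in A vs B turned to -0.0055 and -0.047. The fish nearest to another shared its number in 8 of 18 checks.

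Leaving out 1 fish at a time gave, in A vs B, -0.10 to 0.18 for HIF1A, -0.18 to 0.087 for EGLN1, -0.19 to 0.30 for EGLN2, -0.059 to 0.051 for HIF1AN, -0.89 to -0.17 for EPAS1 and 0.16 to 0.77 for BNIP3. In C vs B it gave -0.47 to 0.035 for ARNT2, -0.064 to 0.21 for EGLN1, -0.87 to -0.19 for EPAS1 and -0.24 to 2.09 for BNIP3. In C vs A it gave -0.39 to 0.40 for EPAS1, -0.011 to 0.25 for EGLN1, -0.11 to 0.0076 for VHL and -0.57 to 1.77 for BNIP3.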

Other observations

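The names whose profile over the fish was most like that of 3 members were found by Pearson correlation of log2(CPM + 1) among 8834 names with a mean of at least 1 CPM, and the values describe these 9 fish only, which share their libraries. For HIF1A they were TRIM8 (r = 0.975), THMS2 (0.973) and GNAL (0.965), and without station C replicate 2 these were 0.979, 0.970 and 0.957. Ranked without that fish, the first 3 names were TRIM8 (0.979), EHF (0.977) and MELT (0.975). TRIM8, an E3 ubiquitin ligase, was lowest in station A replicate 3 (133 CPM) and station C replicate 2 (134 CPM), the same fish as HIF1A, and 157 to 189 CPM in the others. For EPAS1 they were PURA (0.880), DAG1 (0.869) and SCUB2 (0.867), and without station C replicate 2 0.885, 0.918 and 0.887. Ranked without that fish, other names came first, namely NPY1R (0.958), GGTA1 (0.949) and C42S2 (0.948). DAG1 (dystroglycan) was 45.1 to 52.3 CPM at station B and lowest in station A replicate 3, at 29.4 CPM.

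For BNIP3 the nearest names were LAR4B (0.993), VDRB (0.992) and PMM1 (0.991), and without station C replicate 2 the values were 0.949, 0.942 and 0.933. Ranked without that fish, other names came first, namely CLIC5 (0.965), PGM1 (0.962) and PRPS2 (0.958). VDRB, a vitamin D receptor of fish, was 44.6, 47.2 and 73.9 CPM at B, 71.4, 53.4 and 74.5 CPM at A and 44.2, 283 and 57.5 CPM at C. Like BNIP3, it was highest in station C replicate 2 and, within station B, highest in replicate 3.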
